A study of Mus musculus with 24 samples.

Results

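Granzyme A (GzmA), granzyme B (GzmB) and perforin (Perforin) are 3 of the 96 genes of a custom NanoString nCounter panel that was read in regulatory T cells (Tregs) of visceral adipose tissue (VAT) from 24 male mice. The 3 genes were taken by name, with earlier results of these data known, and are described across the 6 groups of the study. All mice were on a C57/Bl6 background and carried Foxp3-YFP-Cre, a Cre recombinase expressed from the locus of Foxp3, the transcription factor that defines Tregs. Controls were Foxp3-YFP-Cre;Insr-wt/wt. Knockouts were Foxp3-YFP-cre;Insr-fl/fl, so that the insulin receptor gene is deleted where the Cre is active. From 3 weeks of age, 4 controls and 5 knockouts received a diet rich in fat and sucrose (HFD), and 3 controls and 3 knockouts normal chow (NCD), for 13 weeks, to an age of 16 weeks. Aged mice (3 controls, 6 knockouts) were kept on NCD to 52 weeks of age. According to the labels, ectopic recombination by this Cre occurs in cells other than Tregs, and the animals were of the F4 generation, bred from F3 littermates. From each animal separately, cells positive for CD45, CD4 and the YFP of the Foxp3 allele were sorted.

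Granzymes are serine proteases that killer lymphocytes and some activated Tregs store in cytotoxic granules, and perforin is the granule protein that forms the pore through which granzymes enter a target cell. Granzyme A cleaves after basic residues, whereas granzyme B cleaves after aspartate and activates caspases. In Tregs these proteins are known as one of several means of suppression, next to inhibitory cytokines and surface receptors, and VAT Tregs are known for a distinct programme that includes the lipid regulator Pparg and the effector receptor Klrg1.

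The promoters of both granzyme genes are shown as background, and their relation to the signals was not tested. They are RefSeq sequences of build GRCm38.p6, each from 250 bases before to 50 bases after the annotated start, read 5′ to 3′ on the gene's own minus strand. Of the 3 panel names, 2 matched a gene in the sequence table by symbol, and Perforin did not, so its promoter is not shown. Gzma is annotated at chr13:113093824-113100981 and its window at chr13:113100932-113101231, and Gzmb is annotated at chr14:56258836-56262334 and its window at chr14:56262285-56262584. Capitals mark matches to 6 motifs, searched on both strands.
Gzma promoter: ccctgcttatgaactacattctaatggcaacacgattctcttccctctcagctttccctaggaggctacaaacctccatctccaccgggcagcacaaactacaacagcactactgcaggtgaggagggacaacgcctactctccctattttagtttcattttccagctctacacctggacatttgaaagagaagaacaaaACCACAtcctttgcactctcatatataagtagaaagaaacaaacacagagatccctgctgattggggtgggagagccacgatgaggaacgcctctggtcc
Gzmb promoter: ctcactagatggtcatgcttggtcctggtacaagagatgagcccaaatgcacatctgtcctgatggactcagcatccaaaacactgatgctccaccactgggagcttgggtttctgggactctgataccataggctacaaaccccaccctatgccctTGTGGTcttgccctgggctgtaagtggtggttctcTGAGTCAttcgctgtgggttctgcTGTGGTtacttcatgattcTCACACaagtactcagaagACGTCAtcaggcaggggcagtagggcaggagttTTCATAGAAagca

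The motifs were chosen after the sequences were seen. That of RUNX factors was TGTGGT, that of T-box factors TCACAC, the cyclic AMP response element (CRE) ACGTCA and the TATA box TATAAA. The STAT motif was TTCNNNGAA, and the AP-1 motif was TGA and TCA with any base between them. The Gzma window held 1 match, a RUNX motif on the other strand at position -50, counted with the annotated start as 0. The Gzmb window held RUNX motifs at -93 and -34, an AP-1 motif at -58, a T-box motif at -15, a CRE motif at 4 and a STAT motif at 37, none of which overlapped another. Among all 32851 promoters of the table, 16.8% held the RUNX motif, 7.81% the AP-1 motif, 7.51% the CRE motif, 14.5% the T-box motif, 8.30% the STAT motif and 13.6% the TATA motif. A match describes letters in the window and not a bound site.

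Values are nCounter signal, brought by the authors to a total near 100000 over the panel in most samples. The sums of the NCD controls were higher, at 109979, 103368 and 126723. The counts behind the signal could be read off from the step between values, and the recovered totals ran from 11446 to 224793 counts per sample, with the lowest group median in NCD knockouts (20360). The deleted gene, InsR, had a signal of 1.78 to 18.6 in the knockouts and 49.8 to 513 in the controls, with no overlap. Of the Treg markers, Foxp3, CD25 (the IL-2 receptor alpha chain) and Helios (a Treg transcription factor) were on the panel, 3 of 4 listed. Their summed signal was 5455 to 14361 in the 4 groups of 16-week-old mice, 3933 to 6650 in aged controls and 598 to 4114 in aged knockouts. Foxp3 itself was 172 to 1418 in aged knockouts and 1462 to 2257 in aged controls, so these groups did not overlap. Of the whole panel, 22.9% did not overlap between them. Igfbp7, the only 1 of 4 listed stromal and endothelial markers on the panel, was 2001 to 8571 in aged knockouts and 17.1 to 2143 in the other 5 groups. Lyz2, the only 1 of 8 listed macrophage and monocyte markers, was 132 to 6875 in aged mice and 30.5 to 453 in younger mice. Mmp9, the only 1 of 5 listed neutrophil markers, was 147 to 310 in aged controls and 12.6 to 65.0 in aged knockouts. No listed marker of CD8 T cells, NK cells, mast cells or adipocytes was on the panel, and NK and CD8 T cells are known for high granzyme and perforin levels.

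Perforin, the pore-forming protein, had its highest group means in NCD mice. Its signal was 498, 440 and 719 in the 3 NCD controls and 408, 358 and 778 in the 3 NCD knockouts. In HFD controls it was 328, 104, 360 and 1005, and in HFD knockouts 206, 155, 129, 151 and 110. In aged controls it was 606, 274 and 599, and in the 6 aged knockouts it ran from 83.6 through a median of 129 to 499. The 5 HFD knockouts lay close together, whereas HFD control replicate 4 was the highest of all 24 mice and HFD control replicate 2 lay below all HFD knockouts. In order of the group mean the levels were 552 ± 147 in NCD controls (SD, n = 3), 514 ± 229 in NCD knockouts (n = 3), 493 ± 190 in aged controls (n = 3), 449 ± 388 in HFD controls (n = 4), 196 ± 159 in aged knockouts (n = 6) and 150.2 ± 36.0 in HFD knockouts (n = 5). Each group in this order overlapped the next in range.

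GzmA spanned from 10.8 to 1155 across the 24 mice. Its signal was 162, 470 and 1155 in NCD controls and 280.0, 130.5 and 437 in NCD knockouts. In HFD controls it was 85.5, 49.2, 96.9 and 37.5, and in HFD knockouts 17.1, 63.1, 100.7, 57.4 and 30.7. In aged controls it was 75.9, 109 and 118, and in aged knockouts it ran from 10.8 through a median of 26.8 to 254. All 6 NCD mice lay above all 9 HFD mice and all 3 aged controls, and aged knockout replicate 6 stood far above the other 5 aged knockouts. For these pooled groups the share of the panel that did not overlap was not counted. Within a genotype that share was 31.2% on HFD against NCD in controls, 26.0% in knockouts, and 43.8% with age in controls. The group means were 596 ± 509 in NCD controls (SD, n = 3), 282 ± 153 in NCD knockouts (n = 3), 100.9 ± 22.1 in aged controls (n = 3), 67.3 ± 28.4 in HFD controls (n = 4), 66.9 ± 93.4 in aged knockouts (n = 6) and 53.8 ± 32.3 in HFD knockouts (n = 5). Between neighbours in this order, NCD knockouts and aged controls did not overlap, and the others did. The share of the panel that did not overlap between NCD knockouts and aged controls was not counted.

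GzmB differed from GzmA in its place among aged controls, where its mean was the highest of the 6 groups. Its signal was 98.3, 238 and 92.0 in NCD controls and 147, 92.6 and 271 in NCD knockouts. In HFD controls it was 44.8, 23.0, 29.5 and 33.4, and in HFD knockouts 17.1, 32.1, 102, 38.0 and 25.8. In aged controls it was 143, 107 and 323, and in aged knockouts it ran from 7.22 through a median of 41.5 to 149. HFD controls all lay at or below 44.8, aged controls all lay at or above 107, and aged knockouts reached from below every other mouse to within the range of the controls. The share of the panel that did not overlap between HFD controls and aged controls was not counted. The group means were 191 ± 116 in aged controls (SD, n = 3), 170.3 ± 91.3 in NCD knockouts (n = 3), 142.8 ± 82.6 in NCD controls (n = 3), 57.3 ± 54.5 in aged knockouts (n = 6), 43.1 ± 34.0 in HFD knockouts (n = 5) and 32.6 ± 9.18 in HFD controls (n = 4). Each group overlapped the next in range.

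The recovered counts set the precision of these values. GzmB rested on 2 to 123 counts per aged knockout and 6 to 62 per HFD knockout, GzmA on 3 to 121 and 6 to 69, and Perforin on 30 to 323 and 72 to 248. For the lowest value, GzmB in aged knockout replicate 3 with 2 counts, the 95% exact Poisson interval of the signal was 0.874 to 26.1, which covers counting error only.

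**Figure D1:**
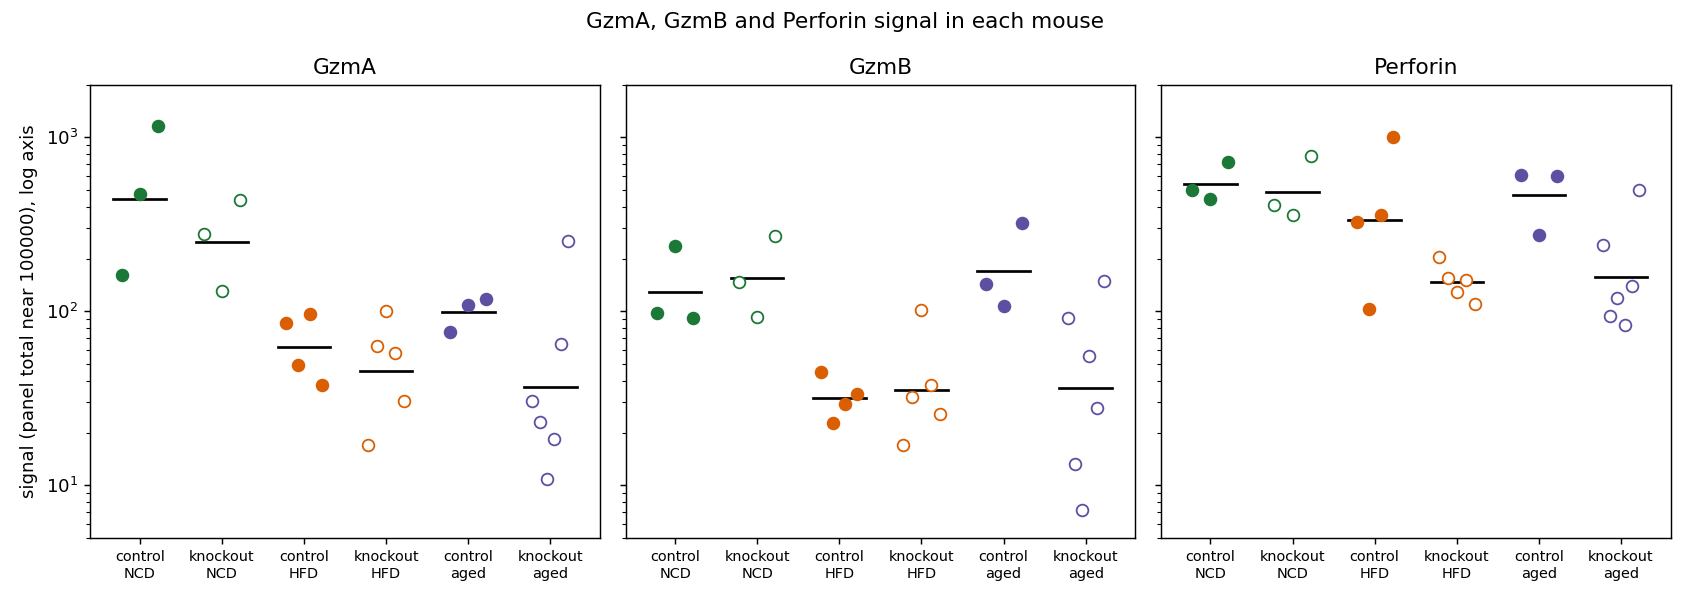
Signal of GzmA, GzmB and Perforin (vertical log axis, panel total near 100000) in each of 24 mice, by group on the horizontal axis; filled points are controls, open points knockouts, and bars are means of log2(signal + 1) turned back to signal. GzmA in all 6 NCD mice lies above all 9 HFD mice, and Perforin in the 5 HFD knockouts lies between 110 and 206. The share of the panel separated in the same way over these pooled groups was not counted.

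Diet was compared at the same age, to ask how the obesogenic diet changed VAT Tregs within each genotype. In the main fit GzmA passed as lower on HFD in both genotypes, and Perforin in knockouts. These calls depended on single mice and on the scaling, as given below. In controls GzmA was 7.01-fold lower on HFD (log2 fold change -2.81, SE 0.82, adjusted p = 0.012), and all 4 HFD controls lay below all 3 NCD controls. This was 1 of the 3 genes, and 20.8% of the panel passed in the same comparison, where the median log2 fold change of the 96 genes was -0.52. GzmB was also lower in all 4 HFD controls than in every NCD control, with a log2 fold change of -1.99 (SE 0.77) that missed the threshold (adjusted p = 0.069), and 31.2% of the panel did not overlap between these groups. Perforin had a log2 fold change of -0.70 (95% interval -1.98 to 0.59, adjusted p = 0.446). Adjusted p-values are from limma with Benjamini-Hochberg adjustment over the 96 genes, the threshold was 0.05, and fold changes are on the log2(signal + 1) scale.

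In knockouts GzmA was 5.43-fold lower on HFD (log2 fold change -2.44, SE 0.78, adjusted p = 0.034), and Perforin was 3.28-fold lower (-1.71, SE 0.59, adjusted p = 0.048). Both genes were lower in all 5 HFD knockouts than in all 3 NCD knockouts. The change of GzmB was -2.09 (SE 0.74, adjusted p = 0.052), and its groups overlapped through HFD knockout replicate 3. Thus 2 of the 3 genes passed, where 17.7% of the panel passed, all of it lower, with a panel median of -0.46, and where 26.0% of the panel did not overlap. The response to diet was not shown to differ between genotypes in limma: the difference was 0.37 for GzmA (95% interval -1.98 to 2.71), -0.10 for GzmB (-2.32 to 2.12) and -1.02 for Perforin (-2.80 to 0.76). No gene of the panel passed for this difference (0%), and 12 genes had p under 0.05 before adjustment. With array weights 7 genes were called, by voom on the recovered counts 2, and with rescaling to 1 panel total 2.

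A lower level in a sorted sample can come from fewer cells that express a gene or from less RNA per cell, and bulk values cannot tell these apart. Treg markers did not fall together on HFD. Of the 3, CD25 fell in controls (log2 fold change -2.46, adjusted p = 0.0033) and was -0.97 in knockouts (adjusted p = 0.265). Foxp3 was 0.26 and Helios 0.51 in controls and 0.22 and 0.67 in knockouts, none of them past the threshold. Relative to the mean log2 level of the 3 markers in the same sample, a scale chosen after the data were seen, GzmA changed by -2.25 (SE 0.95, adjusted p = 0.109) in controls and by -2.42 (SE 0.90, adjusted p = 0.094) in knockouts, and Perforin in knockouts by -1.69 (SE 0.75, adjusted p = 0.148).

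The controls' GzmA call was lost when NCD control replicate 3, the mouse with a signal of 1155, was left out (-2.12, adjusted p = 0.090), while every remaining HFD control still lay below the remaining NCD controls. The knockouts' Perforin call was lost when any of the 8 mice was left out (adjusted p between 0.052 and 0.228), and their GzmA call when HFD knockout replicate 1 or 5, or NCD knockout replicate 1 or 3, was left out (-2.37 to -2.05). Without HFD knockout replicate 3, GzmB passed as well (-2.47, adjusted p = 0.020). Depth did not overlap between the knockout groups, with recovered totals of 11446 to 23790 on NCD and 34986 to 224793 on HFD. With log2 total as a covariate both knockout calls were lost, at -2.76 for GzmA (adjusted p = 0.128) and -1.28 for Perforin (adjusted p = 0.408), and 1 gene of the panel passed in place of 17. Both were also lost when samples were centred on their median (adjusted p = 0.062 and 0.130) or on 4 reference genes (0.125 and 0.195).

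**Figure D2:**
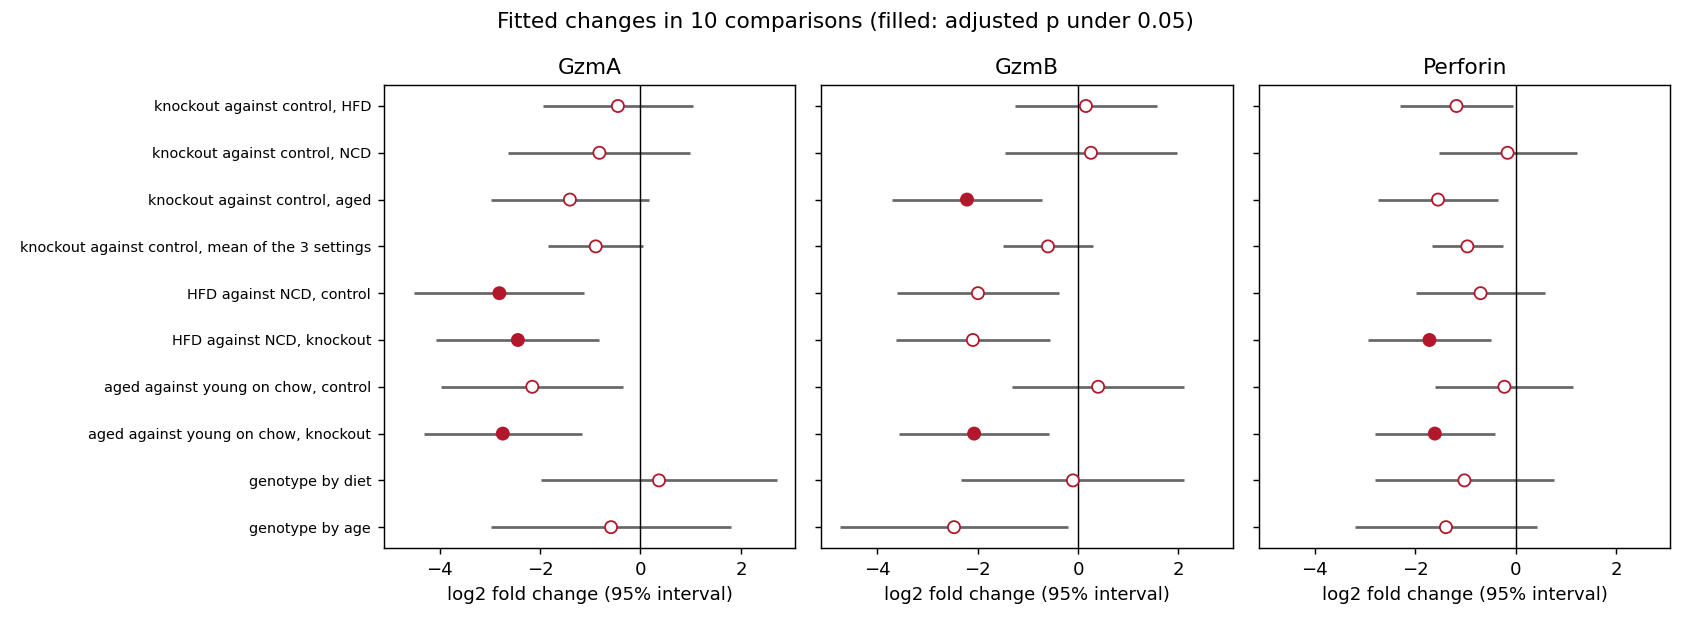
Fitted log2 fold change (horizontal axis, points) with its 95% interval (lines) for each gene in the 10 comparisons on the vertical axis; filled points had an adjusted p under 0.05 in limma, and an interaction is a difference of log2 fold changes. In all, 7 of 30 tests passed, all 7 of them lower in the group named first.

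The knockout was compared with the control in each setting, to ask how loss of the insulin receptor changes VAT Tregs. GzmB was 4.63-fold lower in aged knockouts than in aged controls (log2 fold change -2.21, SE 0.72, adjusted p = 0.030), with overlap of the highest knockout, replicate 6 at 149, with the controls at 107 to 323. The change of Perforin was -1.54 (SE 0.57, adjusted p = 0.051) and that of GzmA -1.41 (SE 0.76, adjusted p = 0.184), and both overlapped between groups, where 22.9% of the panel did not. Thus 1 of the 3 genes passed, where 24% of the panel passed and the panel median was -0.60.

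The Treg markers moved with these values. Foxp3 (-1.69, adjusted p = 0.021), CD25 (-2.35, adjusted p = 0.0042) and Helios (-1.82, adjusted p = 0.0024) all fell in aged knockouts, 3 of 3, and Igfbp7 rose (2.69, adjusted p = 0.030). Mmp9 fell (-2.55, adjusted p = 0.030), and Lyz2 (-0.20, adjusted p = 0.917) and the T cell receptor transcript Tcra (-2.68, adjusted p = 0.064) did not pass. Relative to the 3 Treg markers, the change of GzmB was -0.26 (SE 0.86, adjusted p = 0.849), that of GzmA 0.55 (SE 0.88, adjusted p = 0.661) and that of Perforin 0.41 (SE 0.72, adjusted p = 0.700). On that scale the panel median was 1.36, so the call for GzmB was lost and the sign of the other two genes turned. Aged knockout replicate 6, the highest aged knockout for all 3 genes, had the lowest Foxp3 (172) and the highest Lyz2 (6875) of its group. Its CD25 (260), Helios (191), Igfbp7 (3622), Mmp9 (21.0) and Tcra (419) were at neither end of the group's range. The part of other cells in these values was not tested.

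The call for GzmB was also lost when samples were centred on their median (-1.34, adjusted p = 0.159) and in a fit of these groups alone (adjusted p = 0.111), and without aged knockout replicate 2 or 3, or without any of the 3 aged controls (-2.54 to -1.75, with adjusted p between 0.050 and 0.171). When aged knockout replicate 6 was left out, GzmA (-1.96, adjusted p = 0.030) and Perforin (-1.87, adjusted p = 0.017) passed, and Perforin also passed without aged knockout replicate 1 (-1.66, adjusted p = 0.045).

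In younger mice none of the 3 genes passed between genotypes, in limma or with voom. All groups overlapped, where 5.21% of the panel on HFD and 23.96% on NCD did not. On HFD the log2 fold changes were -0.45 for GzmA (95% interval -1.94 to 1.04), 0.16 for GzmB (-1.25 to 1.57) and -1.18 for Perforin (-2.30 to -0.047, unadjusted p = 0.042, adjusted p = 0.395), where 2.08% of the panel passed. On NCD they were -0.82 for GzmA (-2.63 to 0.99), 0.26 for GzmB (-1.46 to 1.97) and -0.16 for Perforin (-1.53 to 1.22), where 5.21% of the panel passed. The interval for each gene on NCD thus included changes of more than 1 log2 unit in either direction, except that GzmA reached only 0.99 upwards. Averaged over the 3 settings with equal weights, the genotype effect was -0.89 for GzmA (adjusted p = 0.221), -0.60 for GzmB (adjusted p = 0.426) and -0.96 for Perforin (SE 0.34, adjusted p = 0.082). Perforin passed in this mean without HFD control replicate 2 (-1.15, adjusted p = 0.026) or without aged knockout replicate 6 (-1.07, adjusted p = 0.042), and 5.21% of the panel passed with all mice.

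Age was compared on the same diet, to ask how VAT Tregs differ between 52 and 16 weeks. All 3 genes fell with age in knockouts. GzmA was 6.69-fold lower (log2 fold change -2.74, SE 0.76, adjusted p = 0.0059), GzmB 4.19-fold lower (-2.07, SE 0.72, adjusted p = 0.022) and Perforin 3.04-fold lower (-1.61, SE 0.57, adjusted p = 0.024). Each group pair overlapped, in each case through aged knockout replicate 6, where 33.3% of the panel did not overlap. In the same comparison 54.2% of the panel passed and the panel median was -0.82. The NCD knockouts in this comparison are those of the diet comparison.

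Treg markers fell in aged knockouts here too, 3 of 3, with log2 fold changes of -2.59 for Foxp3, -2.48 for CD25 and -3.38 for Helios (adjusted p at most 7.8e-04), and Igfbp7 (5.19) and Lyz2 (2.96) rose. Relative to the 3 markers, the changes were 0.08 for GzmA (SE 0.88), 0.75 for GzmB (SE 0.86) and 1.21 for Perforin (SE 0.72), none past the threshold, so all 3 signs turned and the panel median on that scale was 1.99. GzmB lost its call without NCD knockout replicate 1 or 3 (-2.10 and -1.67) and Perforin without NCD knockout replicate 3 (-1.26, adjusted p = 0.126), and both lost it when samples were centred on their median (-1.30 and -0.84) or on 4 reference genes (-1.49 and -1.02) and in a fit of these groups alone. GzmA passed under these 3 alternatives and whichever of the 9 mice was left out (adjusted p at most 0.041).

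In controls no gene of the 3 passed between ages, in limma or with voom. GzmA was lower in all 3 aged controls than in all 3 NCD controls, with a log2 fold change of -2.15 (95% interval -3.97 to -0.34, unadjusted p = 0.022, adjusted p = 0.117), where 43.8% of the panel did not overlap and 5.21% passed. GzmB was 0.40 (-1.32 to 2.12) and Perforin -0.22 (-1.59 to 1.15), both with overlap. The difference in the age effect between genotypes was -2.47 for GzmB (95% interval -4.74 to -0.20, unadjusted p = 0.034, adjusted p = 0.165), -1.39 for Perforin (adjusted p = 0.308) and -0.59 for GzmA (adjusted p = 0.824) in limma. No gene of the panel passed for this difference (0%), 26 genes had p under 0.05 before adjustment, and 4 were called by voom, 23 with array weights, 8 with a pseudocount of 10 and 7 without aged knockout replicate 5.

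**Figure D3:**
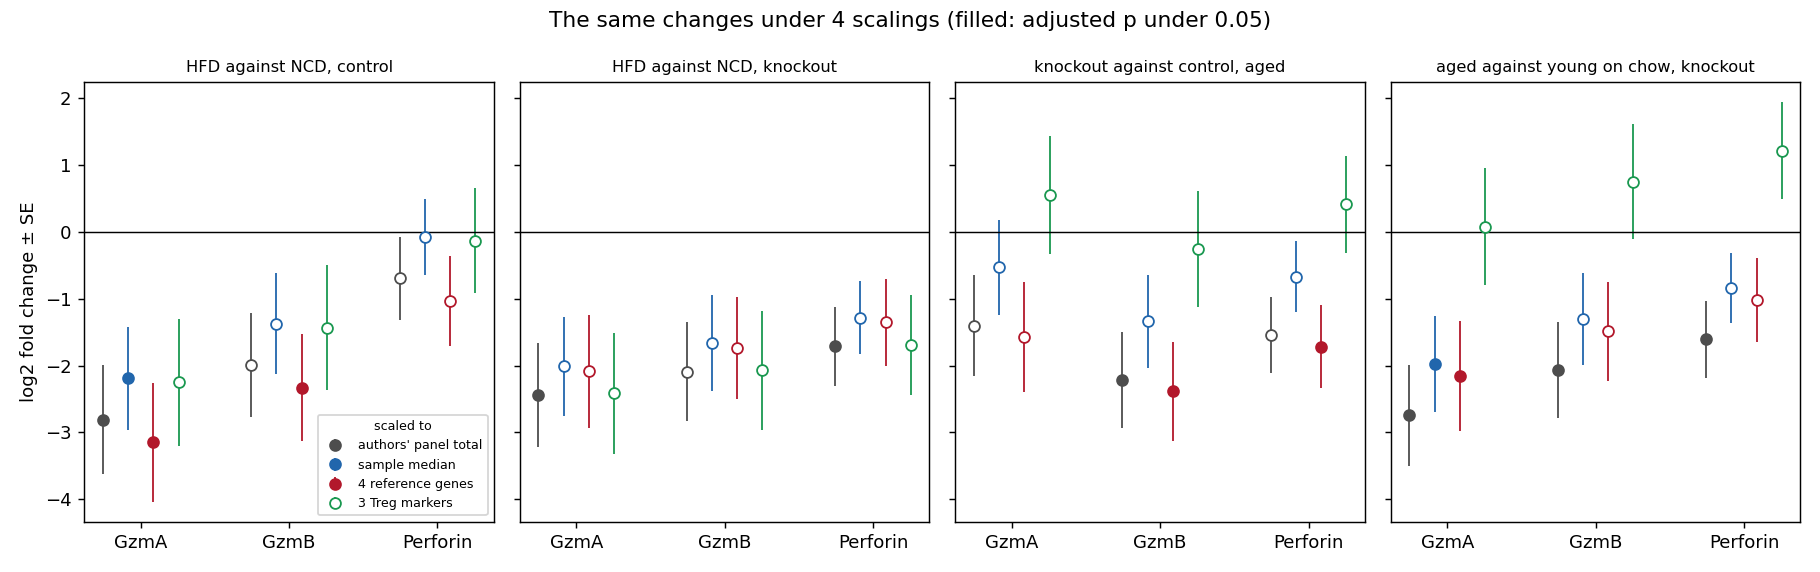
Log2 fold change ± SE (vertical axis) of each gene in 4 comparisons, with samples scaled to the authors' panel total, the sample median, 4 reference genes or 3 Treg markers; filled points had an adjusted p under 0.05. GzmA on HFD lies between -3.15 and -2.01 under the 4 scalings, with the call lost on the Treg markers in both genotypes and on the sample median and reference genes in knockouts, and in aged knockouts against NCD knockouts the values of all 3 genes lie above 0 when scaled to the Treg markers.

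The ratio of GzmB to GzmA within a sample does not depend on how the sample was scaled, although its absolute size carries the efficiencies of both probes. It was 0.0796, 0.506 and 0.608 in NCD controls and 0.984, 1.89 and 2.75 in aged controls, so that these groups did not overlap. Of single panel genes 43.8% did not overlap between these groups, and no such share was counted for ratios of other genes. For the tests 1 was added to each signal, so the tested log2 ratio depends slightly on scaling. The difference in mean log2 ratio was 2.55, with an exact two-sided permutation p = 0.1, the smallest that 3 mice against 3 allow, and an adjusted p = 0.433 over the 7 pairs of groups compared. In aged knockouts the ratio ran from 0.429 through a median of 0.627 to 3, and none of the other 6 differences passed (adjusted p from 0.433 to 0.595).

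Across all 24 mice the 3 genes varied together. GzmA and GzmB had the highest correlation of log2(signal + 1), with Pearson's r = 0.74 (permutation p adjusted over 3 pairs = 9e-05) and Spearman's rho = 0.79 (adjusted p = 3e-05, from 1e-05, the smallest that 100000 permutations can give). GzmA and Perforin had r = 0.67 (adjusted p = 4.1e-04) and rho = 0.68 (adjusted p = 5.1e-04), and GzmB and Perforin r = 0.65 (adjusted p = 7.2e-04) and rho = 0.66 (adjusted p = 6.1e-04). Without the 2 mice farthest from the median of the gene named first, r was 0.77, 0.61 and 0.57. These values share the scaling of each sample, and the groups differ in level. The permutations ran over all mice regardless of group, so their p-values also take in differences between groups. After group means were subtracted, r was 0.64, 0.39 and 0.44, with no test made.

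The values of r varied between settings, as a description over 6 to 9 mice of both genotypes, and their difference was not tested. In the 9 aged mice r was 0.77 for GzmA and GzmB, 0.80 for GzmA and Perforin and 0.83 for GzmB and Perforin. In the 9 HFD mice GzmA and GzmB had r = 0.72, but Perforin had r = 0.01 with GzmA and -0.03 with GzmB. In the 6 NCD mice r was 0.24 for GzmA and GzmB, 0.70 for GzmA and Perforin and 0.26 for GzmB and Perforin. Perforin thus had r near 0 with the granzymes over the 9 HFD mice, which so few mice do not show to be an absent relation. Among them HFD control replicate 4 combined the highest Perforin of all mice with the lowest GzmA of its group.

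**Figure D4:**
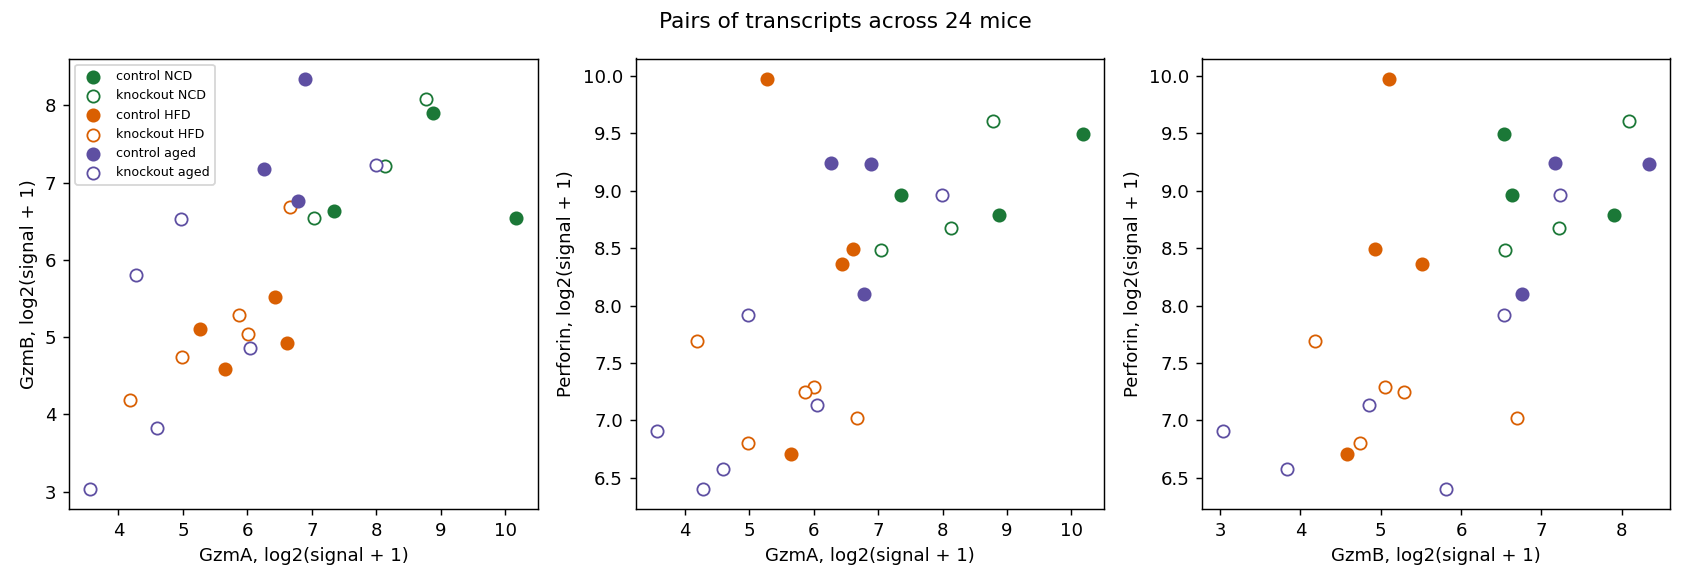
Log2(signal + 1) of 1 gene against another in each of 24 mice, for the 3 pairs of genes; filled points are controls and open points knockouts, coloured by setting. GzmA and GzmB rise together over all mice (r = 0.74). The HFD control at the top of the panels with Perforin has the lowest GzmA of its group (37.5, on 9 counts). Its GzmB (33.4, on 8 counts) lies within its group's range of 23.0 to 44.8.

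Among the other panel genes, the pattern across 24 mice most like GzmA was that of Pcsk1, a proprotein convertase (r = 0.74), then S100a6, a calcium-binding protein (0.73), and Prdm1, which encodes the transcription factor Blimp-1 (0.68). For GzmB these were Cabyr (0.64), Pparg (0.64) and Pcsk1 (0.62). For Perforin they were Cabyr (0.70), S100a6 (0.68) and Il10ra, the IL-10 receptor alpha chain (0.60). With group means subtracted these 9 values fell to between 0.06 and 0.46. With the log2 recovered total of the sample, r was -0.21 for GzmA, -0.32 for GzmB and -0.36 for Perforin.

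Of 22 listed genes of the cytotoxic programme other than the 3 described, 4 were on the panel. These were Tbet, a transcription factor of type 1 and cytotoxic lymphocytes, Prdm1, Irf4, a transcription factor of effector Tregs, and Klrg1, an inhibitory receptor of effector lymphocytes. In aged knockouts against aged controls 3 of 4 fell: Tbet (-2.09, adjusted p = 0.021), Irf4 (-1.46, adjusted p = 0.032) and Klrg1 (-2.56, adjusted p = 0.032), with a list median of -1.78 beside -0.60 for the panel. In that comparison 24% of the panel passed and Foxp3, CD25 and Helios all fell. On HFD in controls, where 20.8% of the panel passed, 1 of 4 fell, Klrg1 (-4.42, adjusted p = 0.0012), with Prdm1 at -1.23 (adjusted p = 0.069), Tbet at 0.07 and Irf4 at -0.33. On HFD in knockouts the log2 fold changes of the 4 genes ran from -1.44 to 0.57 (adjusted p at least 0.273), with a list median of -0.47 beside -0.46 for the panel. With age in knockouts, where 54.2% of the panel passed, 1 of 4 fell, Prdm1 (-1.10, adjusted p = 0.039).

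Of 17 listed genes for other means of Treg suppression and repair, 8 were on the panel. In aged knockouts against aged controls 3 of 8 fell: the cytokine IL-10 (-2.07, adjusted p = 0.0019), the growth factor amphiregulin, Areg (-1.84, adjusted p = 0.0071), and the receptor PD-1, Pdcd1 (-1.91, adjusted p = 0.0062). The list median there was -0.83 beside -0.60 for the panel, 24% of the panel passed, and the 3 Treg markers fell as well. With age in knockouts 7 of 8 fell, with a list median of -1.78 beside -0.82 for the panel, of which 54.2% passed, and there the 3 Treg markers fell and Igfbp7 and Lyz2 rose. On HFD in controls 2 of 8 fell beside 20.8% of the panel, IL-10 (-2.16, adjusted p = 0.0012) and the protease Furin (-1.66, adjusted p = 0.0074), and the list median was 0.04 beside -0.52 for the panel. On HFD in knockouts the smallest adjusted p of the 8 genes was 0.112, and the list median was 0.19. Of 10 listed genes of IL-2 receptor and STAT5 signalling, which is known to induce granzyme B in T cells, only CD25 was on the panel.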

How the data were processed

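RNA of VAT Tregs, sorted from each of 24 mice, was read for 96 genes on an nCounter SPRINT Profiler, per the labels' protocols. The deposited values are linear signal that the authors brought to a total of 100000 over the panel, as read from the values: 12 samples sum to 100000 and 12 to more, up to 126723 in NCD control replicate 3. The sums differed by genotype, and the labels do not say why. All controls summed to more than 100000, from 100071 upwards. Most knockouts summed to 100000, and their highest sum was 100422. Rescaling to 1 panel total kept all 7 calls and turned 1 sign. The background correction and the software were not given in the sources used here. For 2302 of 2304 values (99.9%) division of the deposited signal by the smallest step of that sample gave a whole number (tolerance 0.02), and hence the recovered totals, and 5 values were 0.

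Samples were grouped by their titles. limma 3.58.1 in R 4.3.3 fitted 6 group means to log2(signal + 1) of all 24 samples (lmFit, contrasts.fit, eBayes), with 10 contrasts and two-sided p-values adjusted by Benjamini-Hochberg over 96 genes at a threshold of 0.05. No gene or sample was left out. Permutation tests used scipy 1.17.1 and Python 3.11.15. The fit was tested on simulated data. Named genes were the 3 genes described, InsR as the check of the knockout, the 3 panel genes with the highest r to each, and passing genes of the lists. The genes described and the lists were chosen with earlier results of these data known. The alternatives were other pseudocounts (0.1 and 10), a filter on low genes, other scalings, fits of the groups compared alone, array weights, a replicate block, depth as a covariate, voom and leaving out each sample. Labels name no batch. Same-numbered samples did not deviate together (median r of -0.04 over 49 pairs, 10 of them over 0.1), so replicate numbers were not taken as pairs.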

Additional observations from a re-analysis of the deposited data

Results flagged for a closer look

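GzmA in aged knockout replicate 6 was 253.6, far from the other 5 mice of its group, the next of which was 65.2. The gap was 0.776 of the group's range, above Dixon's critical value of 0.625 for 6 samples. On the log2 scale the gap was 0.439 of the range and not above that value.

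GzmB in HFD knockout replicate 3 was 102.3, and the next mouse of its group was 38.0. The gap was 0.756 of the range, above the critical value of 0.71 for 5 samples, and 0.561 on the log2 scale, not above it. Chance alone places about 1 in 20 groups above these values.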

How the results depend on the processing

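Of the values recomputed under an alternative other than leaving out a sample, 312 kept their direction and their side of the threshold, 20 turned in sign (3 of them calls that were also lost), 18 newly passed and 20 others no longer passed. In this paragraph values are log2 fold changes, and where no cause is given the cause was not tested. The filter left 72 genes and left GzmB out, so that it has no value there. The planned edgeR test on recovered counts was not run, because 2 of 2304 values were not whole, and voom was used. A pseudocount of 10 made Perforin pass in aged knockouts against controls (-1.48) and GzmB on HFD in controls (-1.74) and knockouts (-1.83), and the filter made Perforin pass in aged knockouts against controls (-1.54), with fewer genes tested. Centring on the sample median, which shifts the panel median, turned Perforin between genotypes on NCD (0.069) and the genotype by age value of GzmA (0.059), and ended the calls for GzmB in aged knockouts against controls (-1.34), GzmA (-2.01) and Perforin (-1.28) on HFD in knockouts, and GzmB (-1.30) and Perforin (-0.84) with age in knockouts. Centring on 4 reference genes turned GzmB between genotypes on NCD (-0.13), Perforin with age in controls (0.15) and the genotype by diet value of GzmB (0.60). It made Perforin in aged knockouts against controls (-1.71) and GzmB on HFD in controls (-2.33) pass, and ended the calls for GzmA (-2.08) and Perforin (-1.36) on HFD in knockouts and GzmB (-1.49) and Perforin (-1.02) with age in knockouts. Centring on 3 Treg markers, chosen after seeing the data, ended all 7 calls: GzmA on HFD in controls (-2.25) and knockouts (-2.42), Perforin on HFD in knockouts (-1.69), GzmB in aged knockouts against controls (-0.26), and GzmA (0.076), GzmB (0.75) and Perforin (1.21) with age in knockouts, the last 3 with the sign turned. It also turned GzmA (0.55) and Perforin (0.41) in aged knockouts against controls, GzmB between genotypes on HFD (-0.086) and in the mean (0.070), Perforin between genotypes on NCD (0.14) and with age in controls (0.94), GzmA in genotype by diet (-0.17), and GzmA (1.07) and Perforin (0.28) in genotype by age. A fit of the groups compared alone, with fewer samples, ended the calls for GzmB in aged knockouts against controls (-2.21) and GzmB (-2.07) and Perforin (-1.61) with age in knockouts, and made GzmB pass on HFD in controls (-1.99) and knockouts (-2.09). Array weights turned GzmB between genotypes on NCD (-0.040) and in genotype by diet (0.15), and made GzmA (-1.89) and Perforin (-1.86) in aged knockouts against controls, Perforin in the mean genotype effect (-1.16) and GzmB on HFD in knockouts (-1.77) pass. Depth as a covariate made Perforin pass in aged knockouts against controls (-1.57) and in the mean (-1.03), and ended the calls for GzmA (-2.76) and Perforin (-1.28) on HFD in knockouts and Perforin with age in knockouts (-1.34). Rescaling to 1 panel total, also added later, turned Perforin between genotypes on NCD (0.017), and voom, added later, made Perforin pass in aged knockouts against controls (-1.51) and ended its call on HFD in knockouts (-1.76).

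With the replicate block, although the numbers do not pair the samples, GzmA (-1.99) and Perforin (-1.95) in aged knockouts against controls and Perforin in the mean genotype effect (-1.08) passed, and no other call changed.

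Leaving out each sample in turn gave -2.61 to -1.75 for GzmB, -1.96 to -1.07 for GzmA and -1.92 to -1.35 for Perforin in aged knockouts against controls. It gave -3.54 to -2.12 for GzmA on HFD in controls, and -2.91 to -2.05 for GzmA, -2.47 to -1.69 for GzmB and -1.93 to -1.37 for Perforin on HFD in knockouts. With age in knockouts it gave -2.47 to -1.63 for GzmB and -1.94 to -1.26 for Perforin, and with age in controls -0.058 to 0.84 for GzmB and -0.41 to 0.16 for Perforin. Between genotypes it gave -0.22 to 0.41 for GzmB on HFD, -0.14 to 0.70 for GzmB and -0.50 to 0.060 for Perforin on NCD, and -1.15 to -0.78 for Perforin in the mean. For genotype by diet it gave -0.32 to 1.10 for GzmA and -0.54 to 0.30 for GzmB, for genotype by age -1.27 to 0.14 for GzmA, and for the log2 ratio of GzmB to GzmA on HFD in controls -0.11 to 1.35.

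The number of panel genes that passed in aged knockouts against controls was 23, and 46 with array weights, 44 centred on Treg markers and 5 in the fit of these groups alone. It was 10 without aged knockout replicate 2, and 13, 9 and 11 without aged control replicate 1, 2 and 3. It was 20 on HFD in controls, and 9 centred on Treg markers. It was 17 on HFD in knockouts, and 28 with array weights, 10 centred on Treg markers, 8 centred on reference genes, 1 with depth as a covariate, 7 without NCD knockout replicate 3 and 11 without HFD knockout replicate 5. With age it was 5 in controls, and 19 with array weights, and 52 in knockouts, and 32 centred on the median. Depth limits GzmB, which rested on as few as 2 counts.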
